A study of Mus musculus with 2 samples.

Results

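Galanin signalling was followed through 4 genes of the 32285 features counted in the mouse locus coeruleus: Gal, which encodes the galanin precursor, and the receptor genes Galr1, Galr2 and Galr3. The genes were taken by symbol, and 4 of 4 were listed in both libraries. The series asks about the diversity of neuropeptide signalling, galanin included, in this pontine nucleus of noradrenaline neurons. It holds 2 droplet libraries (10x Genomics), labelled batch 1 and batch 2. The animals were C57BL/6N, wild type, 3 to 4 weeks old, males and females together; both libraries belong to 1 group, so all comparisons ran between cell classes within the libraries. The labels do not say how many mice each library holds, so the replicates behind the p-values are the 2 libraries, whose spread may be technical. With 2 libraries that spread was estimated mostly by pooling over genes, so a p-value does not measure it gene by gene. The labels describe both dissociated, methanol-fixed cells and sorted nuclei without assigning either to a library, and a barcode is called a cell here in either case.

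Galanin is cut from its precursor in the secretory pathway, stored in dense-core vesicles and released beside noradrenaline by locus coeruleus neurons. Its receptors are G protein-coupled. Galr1 and Galr3 act mainly through Gi/o proteins, which inhibit adenylyl cyclases and open GIRK potassium channels, and Galr2 also acts through Gq and phospholipase C.

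In GRCm38 (GENCODE M21 annotation) Gal (ENSMUSG00000024907) lies on chromosome 19 from 3409915 to 3414544 on the minus strand, with 6 exons and no overlapping gene.

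The sequence around the Gal start is shown because Gal was the member that marked 1 class, beside Phox2a, a homeodomain factor of noradrenergic neurons, as the gene of most similar pattern. It is the RefSeq promoter (GRCm38.p6, minus strand, chr19:3414521-3414794) from 250 bases before the start to 24 bases after it, and the capitals mark the only match to TGACG, a short site of the cyclic AMP response element.
Gal: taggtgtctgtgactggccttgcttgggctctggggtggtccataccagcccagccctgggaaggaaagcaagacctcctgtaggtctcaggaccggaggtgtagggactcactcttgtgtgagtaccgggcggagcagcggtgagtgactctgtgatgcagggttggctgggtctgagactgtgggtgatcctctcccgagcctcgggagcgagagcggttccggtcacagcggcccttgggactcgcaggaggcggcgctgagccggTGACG
Both strands of the 300 bases from 250 before to 50 after the start were searched. TGACG lay at +20 to +24 (on the strand printed, counted from the start as +1), and 20.8% of 32851 mouse promoters of that length held it. The full element TGACGTCA (in 1.79% of promoters), the AP-1 letters TGANTCA (7.81%), the E-box CANNTG (72.3%) and TATAAA (13.6%) had no match in this window. Its GC content was 63.3%, against a median of 52.7% over all promoters.

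Library 1 was small and deep, with 304 barcodes and a median of 11010 unique molecular identifiers (UMIs, counted RNA molecules), and library 2 large and shallow, with 2796 barcodes and a median of 1517. After filtering, 294 and 2677 cells remained, 2971 in all against 2578 stated by the series, and the libraries shared 0 barcodes. Classes came from gates on summed marker UMIs per 10,000 UMIs of a cell, with none of the 4 genes among the markers. The gate cut-offs were set after the data were seen. Inhibitory-like neurons needed at least 3 UMIs per 10,000, and 2 UMIs, from Gad1, Gad2, Slc32a1 and Slc6a5. Excitatory-like neurons needed as much from Slc17a6, Slc17a8, Lmx1b, Lmx1a and Lhx9, so UMIs of Lmx1a or Lmx1b alone could suffice. A cell that passed the noradrenergic gate was counted there whichever other neuron type gate it passed. Noradrenergic-like cells (at least 15 UMIs per 10,000 from Dbh, Slc6a2, Th and Slc18a2, with 3 of the 4 seen and 5 UMIs) numbered 12 and 70. Markers held out of the gate were higher there than in all other neurons in both libraries: Ddc, which makes dopamine, stood at 500 against 22.2 CPM (a gene's share of the UMIs of the class, on the usual CPM scale) in library 1 and at 285 against 19.5 in library 2. Phox2a stood at 91.1 against 1.69 and at 68.3 against 0.837 CPM. In library 2 the filters on cells left out 7 further gated cells, 6 by mitochondrial share or gene number and 1 by doublet score, with 11 Gal UMIs together.

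Gal transcript was concentrated in the noradrenergic-like cells. They held 580 of 594 Gal UMIs of library 1 (97.6%, exact Clopper-Pearson 95% interval 96.1 to 98.7) and 172 of 180 of library 2, while contributing 17.9% of all UMIs of library 1. The summed level was 587 CPM in library 1 (exact Poisson 95% interval 540 to 637) and 250 CPM in library 2, a mean of 418.5 ± 238.5 CPM (SD, n = 2). Intervals here and below cover counting error only. Both libraries therefore placed Gal in the same class, at levels that differed between the libraries beyond counting error.

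The next class was far below. Vascular-like cells had 14.4 CPM in library 1, from 1 UMI, and 0 in library 2. Unassigned neurons, which passed the pan-neuronal gate and no gate of a neuron type, had 6.20 and 1.86 CPM, inhibitory-like neurons 3.91 and 3.87 CPM, and oligodendrocyte-like cells 4.72 and 1.67 CPM. Ependymal-like cells had 3.68 and 0 CPM and excitatory-like neurons 1.85 and 0 CPM. Cerebellar granule-like, mesencephalic trigeminal-like, astrocyte-like and oligodendrocyte precursor-like cells had no Gal UMI in either library. The noradrenergic-like range did not overlap that of vascular-like cells, the second class by mean, and each neighbouring pair below that overlapped, so no order among the other 10 classes can be read.

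**Figure D1:**
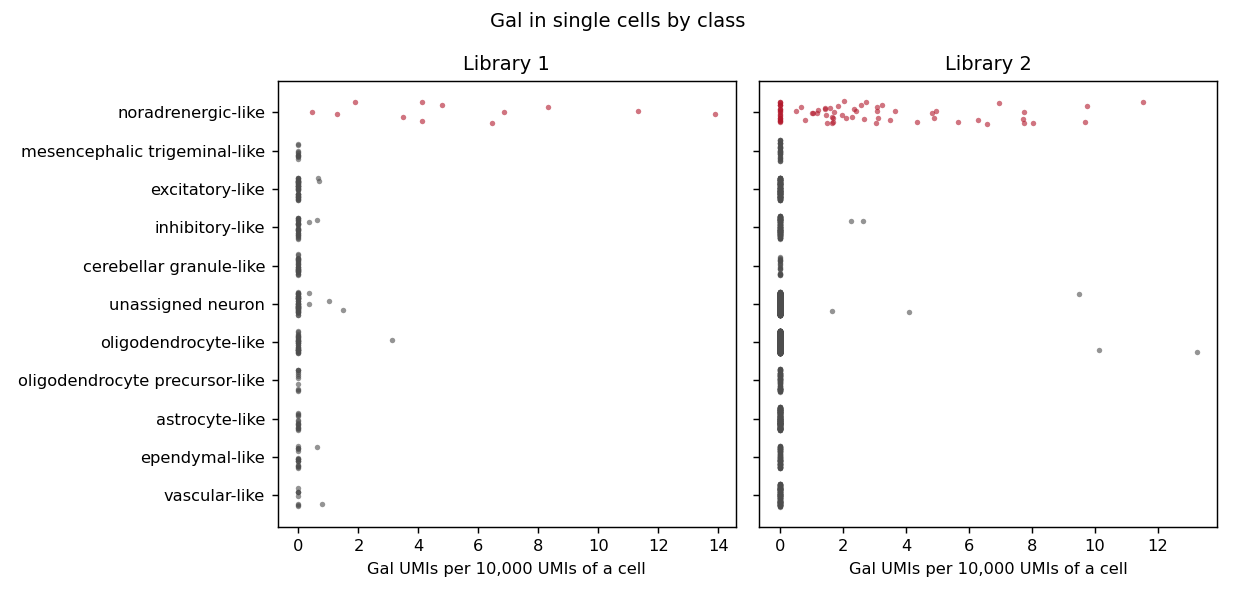
Gal UMIs per 10,000 UMIs of a cell (x axis) in single cells of 11 classes (y axis) in library 1 and library 2; each point is 1 cell, spread vertically at random within its class. Noradrenergic-like cells (red) reach 13.9 in library 1 and 11.5 in library 2, and the isolated oligodendrocyte-like points above 10 in library 2 are cells of 756 and 987 UMIs with 1 Gal UMI each. The noradrenergic-like cell at 13.9 also held 31.9 oligodendrocyte marker UMIs per 10,000.

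Against all other neurons, Gal was 7.54 ± 0.24 (SE) higher on the log2 scale in noradrenergic-like cells (edgeR quasi-likelihood test on class sums, library as block, Benjamini-Hochberg adjusted p = 1.09e-14). Each library alone gave a log2 fold of 7.32 and 6.75, shrunk by a prior count of 2. In this comparison 33.1% of 11561 genes tested were called at an adjusted p under 0.05, 16.6% higher and 16.5% lower in noradrenergic-like cells. Gal and Galr1 passed the filter on low counts, and Gal was the 1 of the 2 that was called.

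Neurons as a whole exceeded non-neuronal cells in Gal by 5.00 ± 0.42 (SE) on the log2 scale (edgeR, adjusted p = 2.57e-31), where 53.4% of 13248 genes were called, 27.8% higher and 25.6% lower in neurons. The levels were 130 against 4.28 CPM in library 1 and 41.4 against 1.03 CPM in library 2. That difference rested on the noradrenergic-like cells. All other neurons stood at 2.81 and 1.39 CPM, inside the counting intervals of the non-neuronal cells (1.17 to 11.0 and 0.125 to 3.73 CPM).

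Gal UMIs outside the noradrenergic-like class were few and mostly single. In library 1, 11 such cells held 14 Gal UMIs, 9 of them with 1 UMI and 7 with no UMI of the 4 gate genes. In library 2, 8 cells held 1 Gal UMI each, and 8 of 8 had no gate gene. The only other cell with more than 2 Gal UMIs was an unassigned neuron of library 1 with 83826 UMIs, 3 of Gal and 26 of gate genes. Of the UMIs of Gal and the gate genes together, in library 1 Gal made up 6.64% in the noradrenergic-like class (6.13 to 7.18, exact 95% interval), 5.78% in other neurons (2.81 to 10.4) and 7.55% in non-neuronal cells (2.10 to 18.2). In library 2 these shares were 3.81% (3.27 to 4.41), 2.07% (0.674 to 4.76) and 1.15% (0.140 to 4.09). The intervals of the other cells contained the noradrenergic-like share in both libraries; the part of free RNA in these UMIs was not tested.

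In library 1, 12 of 12 noradrenergic-like cells had a Gal UMI, at a median depth of 83596.5 UMIs, and in library 2 49 of 70 did (70.0%), at a median of 8171. Of oligodendrocyte-like cells, 1 of 39 and 2 of 728 had one, at medians of 9819 and 1435 UMIs. Cells were then thinned to 1000 UMIs, and shallower cells were left out. The noradrenergic-like shares became 33.3% (4 of 12, exact 95% interval 9.93 to 65.1) and 21.4% (15 of 70, 12.5 to 32.9). Those of oligodendrocyte-like cells were 0 of 39, which allows up to 7.69%, and 0 of 580, which allows up to 0.517%. The limit of a count of 0 is taken here and below as 3 counts over the total of cells or UMIs. It is tighter than the upper end of an exact 95% interval (9.03% and 0.634% here). In library 2 the thinning left out 148 oligodendrocyte-like cells, among them both with a Gal UMI (756 and 987 UMIs). The 0 of library 2 thus followed from the depth cut-off and sets no background. Other neurons had 0 of 184 and 3 of 941 (0.319%, 0.066 to 0.929). At 5000 UMIs the noradrenergic-like shares were 9 of 12 and 33 of 61 (54.1%), leaving out 9 shallower cells of library 2. At a matched depth the 2 libraries thus had overlapping intervals, and a cell without a Gal UMI was not shown to lack the transcript.

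Within the noradrenergic-like class, Gal was uneven. In library 1 the 12 cells held 4 to 110 Gal UMIs (median 40.5). Per 10,000 UMIs they stood at 13.9, 11.3, 8.32, 6.87, 6.46, 4.79, 4.14, 4.13, 3.49, 1.88, 1.29 and 0.454, a 30.6-fold range, and the 3 cells with most Gal held 50.9% of the Gal UMIs of the class. The cell at 13.9, among those 3, also held 31.9 oligodendrocyte marker UMIs per 10,000, against 0.389 to 2.15 in the others. That cell was kept unless stated. In library 2 the 70 cells held 0 to 16 Gal UMIs (median 1): 21 had none, 16 had 1 and 13 had 2. A single common rate per UMI would leave 11.1 of the 70 cells without Gal, fewer than the 21 seen. The cells without Gal had a lower median depth, 5877 UMIs against 8712, but the ranges overlapped (2760 to 17494 against 2051 to 42339). The value of 11.1 already used the depth of each cell. The 17 cells with most Gal held 69.8% of the Gal UMIs.

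The spread between cells left after subtracting counting noise (coefficient of variation, CV) was larger for Gal than for the enzymes and transporters of the noradrenergic phenotype. For Gal the CV was 0.592 in library 1 and 0.871 in library 2. For Dbh, which makes noradrenaline, it was 0.280 and 0.472, for the noradrenaline transporter Slc6a2 0.248 and 0.630, for the vesicular transporter Slc18a2 0.335 and 0.408, and for Th, the first enzyme of the pathway, 0.309 and 0.611. These 4 genes chose the cells, which can narrow their spread. Genes outside the gate gave 0.319 and 0.530 for Ddc and 0.520 and 0.952 for Calca, which encodes CGRP. Some other peptide genes of the class reached values as high or higher, each from under 100 UMIs. These were Adcyap1 (0.634 and 1.13) and, in library 2, Cartpt (1.17) and Pdyn (1.71). In library 1 Cartpt (0.144) and Pdyn (0.510), from 14 UMIs each, lay below Gal. Nucb2 had no spread beyond counting in either library. The Gal value was above that of 97.0% of 1906 genes with at least 100 UMIs in the class in library 1, and of 98.3% of 1242 such genes in library 2, with no test of the difference between genes.

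Cells with more Gal tended to carry more of the gate genes. Pearson's r of Gal with the summed gate markers, both per 10,000 UMIs, was 0.603 over the 12 cells of library 1 and 0.501 over the 70 cells of library 2 (Spearman's rho 0.650 and 0.455). With 3 markers held out of the gate (Ddc, Phox2a and Maoa) r was 0.692 and 0.362 (rho 0.790 and 0.259). With the total UMIs of a cell r was 0.259 and 0.004. These are descriptions over cells of 1 library that share depth as a denominator and are not independent samples.

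**Figure D2:**
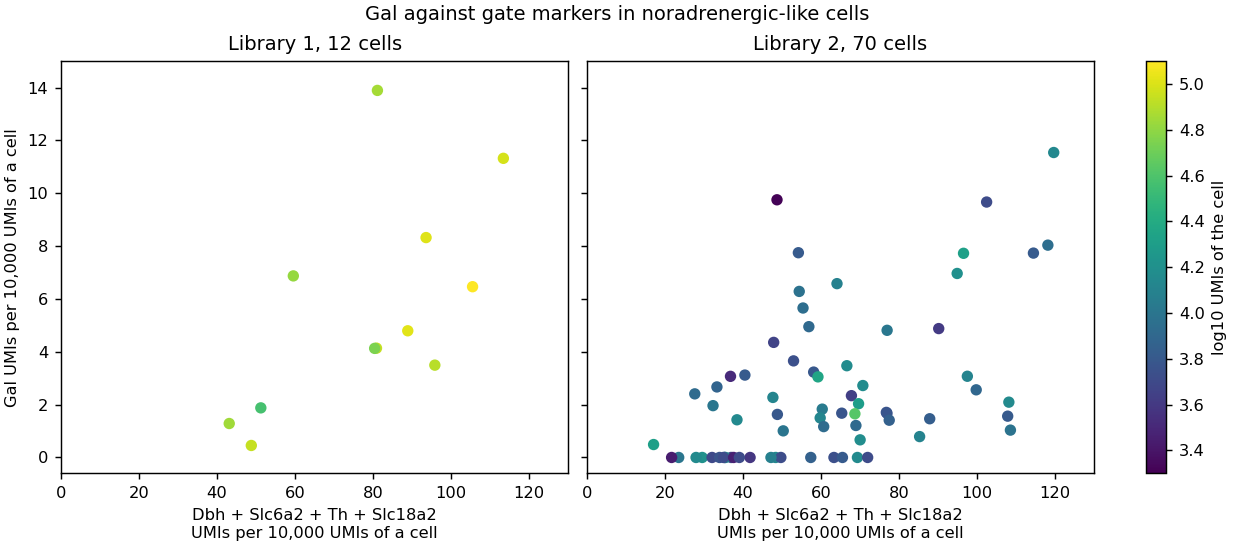
Gal (y axis) against the summed gate markers Dbh, Slc6a2, Th and Slc18a2 (x axis), both as UMIs per 10,000 UMIs of a cell, in the 12 and 70 noradrenergic-like cells of the libraries; each point is 1 cell and its colour gives log10 of its UMIs. The 3 library 1 cells of least Gal lie at 43.1 to 51.2 gate marker UMIs per 10,000, and the 21 cells of library 2 without Gal lie on the line at 0.

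Among 5 partner peptides, Calca went with higher Gal in library 2 and Cartpt with lower. The 30 noradrenergic-like cells of library 2 with a Calca UMI had a Gal level of 353 CPM, and the 40 without had 167 CPM; median depths were 9253 and 7159.5 UMIs. The 32 cells with Cartpt, the gene of the CART peptide, had 152 CPM of Gal and the 38 without had 347 CPM, at medians of 9114.5 and 6779.5 UMIs. In library 1 Calca was seen in 12 of 12 cells, so no such contrast exists, while the 7 cells with Cartpt had 550 and the 5 without 664 CPM of Gal. For Nucb2, the gene of nesfatin, the library 2 levels were 267 with and 237 without, for the PACAP gene Adcyap1 244 and 256, and for the dynorphin gene Pdyn 216 and 262 CPM of Gal. In library 1 they were 603 in 11 cells with Nucb2 and 188 in the 1 without, 659 in 9 cells with Adcyap1 and 384 in 3 without, and 558 in 8 cells with Pdyn and 654 in 4 without. The direction for Adcyap1 thus differed between the libraries. Cells are not replicates, so these contrasts carry no test.

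To look for genes that go with Gal level, the noradrenergic-like cells of each library were divided at the median of Gal per 10,000 UMIs, 4.46 in library 1 (6 and 6 cells) and 1.66 in library 2 (35 and 35). Gal chose these Gal-high and Gal-low cells and is not a result there. The cells nearest the division held 4.79 and 4.14 in library 1, and 1.67 and 1.65 in library 2. Of 6143 other genes, 31 (0.505%) were called, 6 higher (0.0977%) and 25 lower (0.407%) in the Gal-high cells (edgeR, library as block). The calls were lost when 1 or 2 cells were left out. Leaving out the library 1 cell of most Gal per 10,000, which held 31.9 oligodendrocyte marker UMIs per 10,000, left 0 called (366 genes at an unadjusted p under 0.05). Leaving out the 2 library 1 cells of least Gal left 0 called (267 unadjusted). DESeq2 called 0 (19 unadjusted), against 409 at an unadjusted p under 0.05 with edgeR on all cells. Without the cell rich in oligodendrocyte markers the 9 called genes named below kept their direction, at log2 differences of 1.00 to 1.74 for the 4 higher and -2.72 to -1.34 for the 5 lower, so the calls ended and the sizes did not.

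The called gene of smallest adjusted p among those lower in Gal-high cells drew mainly on 1 cell of each library. Zfp804b, a zinc finger gene, had 120 UMIs in the Gal-low cells of library 1, 108 of them in 1 cell, and 49 in those of library 2, 39 of them in 1 cell. Its log2 difference of -1.75 became 0.02 without the 2 cells of least Gal. In 18 of the 31 called genes, 1 cell of library 1 gave at least 50% of the UMIs of the side where the gene was higher.

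Of the 31 called genes, 17 had differences of the same direction and of 0.5 or more in each library. Calca stood at 286 against 155 CPM in the Gal-high and Gal-low cells of library 1 and at 125 against 42.7 CPM in library 2 (log2 difference 1.05 ± 0.25, SE, adjusted p = 0.0128). Htr2c, a serotonin receptor gene, stood at 137 against 38.2 and at 62.3 against 25.6 CPM. Shisa6, an AMPA receptor auxiliary subunit gene, stood at 248 against 146 and at 208 against 85.4 CPM, and Chrnb3, a nicotinic receptor subunit gene, at 135 against 35.9 and at 47.4 against 28.5 CPM. Lower in the Gal-high cells were the GABA-A receptor subunit gene Gabrg3 (31.6 against 119.5 CPM, and 59.3 against 125 CPM) and the phospholipase C gene Plcb1 (17.6 against 103, and 20.8 against 56.9 CPM). Both are among the 18 genes above: 1 cell gave 58.0% of the Gabrg3 UMIs and 62.8% of the Plcb1 UMIs of the Gal-low cells of library 1. Without the 2 cells of least Gal the log2 difference of Gabrg3 went from -1.52 to -0.75 and that of Chrnb3 from 1.48 to 1.00. Calca went from 1.05 to 0.76 and Shisa6 from 0.95 to 0.89 there, while Htr2c went from 1.61 to 2.37. Without the 1 cell rich in oligodendrocyte markers the adjusted p of Calca was 0.396, at a log2 difference of 1.08. Gm32647, a gene of unknown function, and the protocadherin gene Pcdh7 had log2 differences of -2.41 and -2.03 in library 1 and of -0.12 and -0.23 in library 2. Cartpt (-0.14 ± 0.34, SE), Nucb2 (0.10 ± 0.39), Adcyap1 (0.22 ± 0.32) and Pdyn (-0.18 ± 0.52) were not called. Gal-high and Gal-low cells also differed in depth, at a median of 99656.5 against 75092 UMIs in library 1 and 8308 against 7340 in library 2, and in gate markers, at 93.3 against 68.0 and 72.9 against 53.5 UMIs per 10,000. Inhibitory markers stood at 0.123 against 1.05 per 10,000 in library 1, with 1 Gal-low cell at 4.88 (the cell of 108 Zfp804b UMIs), and at 0.385 against 0.285 in library 2. Oligodendrocyte markers stood at 4.6 against 1.15 and at 1.93 against 1.40 per 10,000. The median mitochondrial share was 3.38% against 4.46% in library 1 and 9.27% against 7.07% in library 2. The part of these in the gene differences was not tested.

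**Figure D3:**
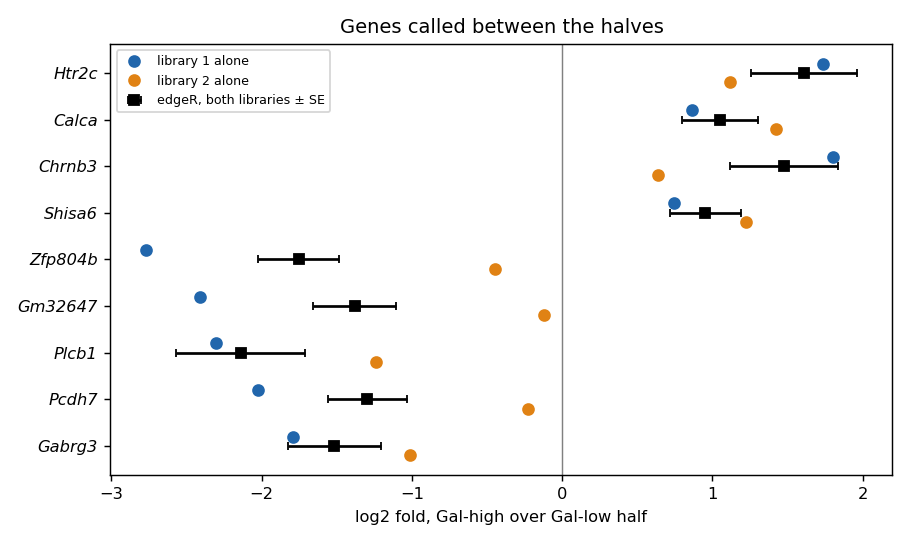
Log2 difference between the Gal-high and Gal-low noradrenergic-like cells (x axis) for 9 called genes of small adjusted p, 4 higher and 5 lower (y axis); squares with bars give the edgeR value over both libraries ± SE, and circles each library alone. Calca, Htr2c, Chrnb3, Shisa6, Gabrg3 and Plcb1 lie beyond 0.5 in both libraries. Zfp804b lies far from 0 in library 1 and within 0.5 of it in library 2.

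Galr1 was the only receptor gene with more than 2 UMIs, and it lay mainly in other neurons than the noradrenergic-like ones. In GRCm38 it lies on chromosome 18 from 82392380 to 82406777, minus strand (ENSMUSG00000024553), with 3 exons. Of 36 and 37 Galr1 UMIs in kept cells, 31 and 34 were in neurons other than the noradrenergic-like. Inhibitory-like neurons had 7.82 CPM in library 1 and 19.3 CPM in library 2, excitatory-like neurons 6.46 and 18.8 CPM, and unassigned neurons 15.5 and 4.95 CPM. Noradrenergic-like cells had 4.05 and 2.90 CPM, oligodendrocyte-like cells 2.36 and 0.835 CPM, and trigeminal-like neurons 0 and 1.71 CPM. No Galr1 UMI was seen in the other 5 of the 11 classes ranked. Outside these, neurons that passed both the excitatory and the inhibitory gate held 5 Galr1 UMIs in library 1, all in 1 of 2 cells (91.3 CPM). In library 2 the 8 such cells held 0. By mean level the first 3 classes overlapped each other over the libraries, unassigned neurons did not overlap noradrenergic-like cells, and these did not overlap oligodendrocyte-like cells, with as few as 1 UMI behind a value.

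One unassigned neuron of library 1 held 11 of the 36 Galr1 UMIs of that library, in 35004 UMIs. Without it unassigned neurons of library 1 fell from 15.5 to 4.29 CPM, and all other neurons together from 8.71 to 5.67 CPM. Unassigned neurons of library 1 then stood at 4.29 against 4.05 CPM in noradrenergic-like cells, inside the counting interval of the latter (1.10 to 10.4 CPM).

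**Figure D4:**
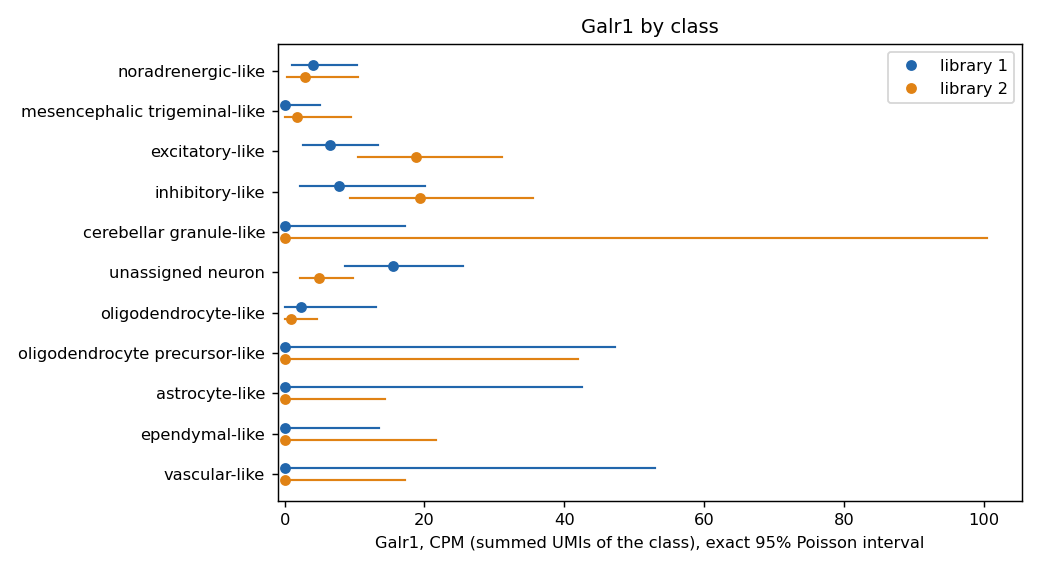
Galr1 level (x axis, CPM of the summed UMIs of a class) in 11 classes (y axis); points are the value in each library and bars its exact 95% Poisson interval, which covers counting error only. Inhibitory-like and excitatory-like neurons reach 19.3 and 18.8 CPM in library 2, noradrenergic-like cells 4.05 and 2.90, and classes at 0 have wide bars where they hold few UMIs.

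In noradrenergic-like cells against all other neurons, Galr1 stood at 4.05 against 8.71 CPM in library 1 and 2.90 against 9.48 CPM in library 2. The log2 difference of -1.38 ± 0.59 (SE) was not called (edgeR, adjusted p = 0.0795, with a range of 0.0767 to 0.656 over the alternatives). In counts, 4 and 2 UMIs were seen where the rate of other neurons would give 8.60 and 6.53, ratios of 0.465 (exact 95% interval 0.119 to 1.32) and 0.306 (0.0357 to 1.20), each interval including 1, and a pooled ratio of 0.394 (0.139 to 0.904, counting error only). Without the neuron of 11 Galr1 UMIs the log2 difference was -1.06 (edgeR, adjusted p = 0.216). The noradrenergic-like cells with Galr1 were 2 in each library. The cell of library 1 with most Gal UMIs, 110, held 3 of its Galr1 UMIs and 1 of Galr2. Shares of cells with a Galr1 UMI were 16.7% and 2.86%, against 2.56% and 0.137% of the shallower oligodendrocyte-like cells. Thinned to 5000 UMIs, 0 of 12 and 0 of 61 noradrenergic-like cells had one, which allows up to 25.0% and 4.92%. Oligodendrocyte-like cells had 0 of 38 and 0 of 3. The noradrenergic-like cells with Galr1 held 1 to 3 such UMIs in 10934 to 97158, so most would lose them at 5000. Galr1 in this class was thus not set apart from background, and this comparison could not decide it.

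Neurons exceeded non-neuronal cells in Galr1 with 35 and 36 UMIs (7.69 and 8.42 CPM) against 1 and 1 (1.07 and 0.516 CPM). The log2 difference was 3.41 ± 0.86 (SE; edgeR, adjusted p = 0.00022), and the ratio over both libraries was 11.6 (exact 95% interval 3.08 to 97.3). DESeq2 gave a similar difference, 3.36, that was not called (adjusted p = 0.0818). Gal and Galr1, the 2 members tested here, were both called, where 53.4% of all genes were.

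Excitatory-like and inhibitory-like neurons gave similar Galr1 levels. Library 1 had 6.46 against 7.82 CPM and library 2 had 18.8 against 19.3 CPM, so the libraries differed more than the classes. In library 2 most excitatory-like neurons with Galr1 had UMIs of Lmx1a or Lmx1b and none of the glutamate transporter gene Slc17a6. The log2 difference was -0.13 ± 0.59 (SE; edgeR, adjusted p = 0.966), and 6.75% of 7926 genes were called in this comparison, 3.7% higher and 3.05% lower in excitatory-like neurons. The ratio of 0.859 had an exact 95% interval of 0.421 to 1.82, and a difference inside that interval was not detectable at this depth. Trigeminal-like neurons, large sensory cells of the same region, had 1 Galr1 UMI in both libraries together where the rate of the remaining non-noradrenergic neurons would give 14.4, a ratio of 0.0695 (0.0017 to 0.401).

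Single neurons with Galr1 came from several transmitter types. Outside the noradrenergic-like class they numbered 8 of 184 in library 1 (4.35%) and 23 of 1056 in library 2 (2.18%). Oligodendrocyte-like cells had a Galr1 UMI in 1 of 39 (2.56%) and 1 of 728 (0.137%), at lower depth. Thinned to 1000 UMIs the neuronal shares were 0.543% and 0.744% (exact 95% interval in library 2 0.300 to 1.53), against 0 of 39 and 1 of 580 oligodendrocyte-like cells (0.172%, 0.0044 to 0.957), so the shares were not set apart at matched depth. Of the 8, 2 had Slc17a6 (the vesicular glutamate transporter) alone, 3 had an inhibitory marker alone and 3 had both. Of the 23, 5 had Slc17a6 alone, 6 an inhibitory marker alone, 1 both and 11 neither. In the same order, other neurons without Galr1 numbered 80, 33, 23 and 40 of 176 in library 1. In library 2 they numbered 219, 257, 33 and 524 of 1033. UMIs of Lmx1a or Lmx1b, factors of a hindbrain excitatory lineage, were in 4 of the 8 and 9 of the 23, against 43 of 176 and 188 of 1033 other neurons without Galr1. Neurons with Galr1 were deeper, at medians of 27578.5 against 13697.5 and 4016 against 2340 UMIs, and the part of depth in these marker counts was not tested.

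Galr2 (ENSMUSG00000020793, chromosome 11, 116280939 to 116283938, plus strand, 2 exons) gave 2 UMIs, both in library 1: 1 in a noradrenergic-like cell and 1 in a trigeminal-like neuron. In library 2, 0 UMIs among 6428160 allow up to 0.467 CPM over all cells. Galr3 (ENSMUSG00000114755, chromosome 15, 79041885 to 79043558, plus strand) has 2 exons and overlaps Gcat on the same strand, so reads from the shared stretch could not be told apart. It gave 0 UMIs in both libraries, which sets a limit (3 counts over the total) of 0.543 CPM over all cells of library 1 and 0.467 CPM over those of library 2, but of 3.04 CPM in the noradrenergic-like cells of library 1. The upper ends of the exact 95% Poisson intervals are 0.668, 0.574 and 3.73 CPM. Neither passed the filter on low counts in any comparison.

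By pattern over 11 classes in each library (22 points, log2 of CPM + 5, 10192 genes ranked), Phox2a was most like Gal, with a Pearson r of 0.957. Next came Tm4sf4 (0.948), a tetraspanin-like membrane protein gene, Agtr1a (0.916), an angiotensin receptor gene, Chrnb3 (0.895) and Th (0.889), itself a gate marker. Tm4sf4 stood at 26.3 and 34.9 CPM in noradrenergic-like cells and at 0 in inhibitory-like neurons. Most like Galr1 were A730060N03Rik (0.896), Gm30003 (0.888), Lncenc1 (0.870), the neuronal kinase gene Camk1g (0.862) and Gm48893 (0.845). Points share their library and the classes were built from markers, so r is a description.

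The genes that make and pack galanin were expressed more widely. Of 13 peptide processing and dense-core vesicle genes, 4 were higher and 3 lower in noradrenergic-like cells than in other neurons, where 16.6% and 16.5% of all genes tested were (median log2 difference 0.28, against -0.01 over all genes tested). Chgb, a granin, stood at 696 and 832 CPM against 241 and 157 (1.91 ± 0.17, SE, adjusted p = 3.64e-08). The granin-family gene Vgf (0.90 ± 0.20) and the proconvertase inhibitor gene Pcsk1n (0.85 ± 0.14) rose too, while Cadps2, which primes vesicles, fell by 2.20 on the log2 scale. DESeq2 called 2 higher and 1 lower, without Vgf (adjusted p = 0.144), where it called 595 and 611 of all genes, against 1923 and 1902 with edgeR. In neurons against non-neuronal cells 13 of 13 were higher (median 1.75, against 0.07 over all genes tested, of which 27.8% were called higher). DESeq2 and the fit without the replicate block called 12 of 13, without Cadps2 (adjusted p = 0.131 and 0.0553). Over all genes these 2 fits called 1886 and 3277 higher, against 3684. Of the related genes Galp, Spx, Kiss1 and Kiss1r, 1 of 4 could be tested between noradrenergic-like cells and other neurons, Spx, which encodes the galanin-like peptide spexin. Its log2 difference of -1.35 was not called by edgeR, nor under 0.05 before adjustment, and DESeq2 gave it no adjusted p. In neurons against non-neuronal cells edgeR called it higher, by 2.37, and it was not called by DESeq2, with at least 500 genes per cell or with no filter on low counts.

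Of 10 genes for the G proteins that galanin receptors use, 8 were higher in noradrenergic-like cells and 0 lower, where 16.6% and 16.5% of all genes tested were (median 0.55). Gnai2, an inhibitory alpha subunit, stood at 102 and 103 CPM against 43.8 and 47.7 (1.12 ± 0.19, SE, adjusted p = 0.000127). Gna11, a Gq family member, was 0.92 ± 0.19 higher, Gnai3 0.74 ± 0.22 and Gng3 0.57 ± 0.16. These calls depended on the fit: DESeq2 called 1 of the 10, Gnai2, and edgeR without the replicate block 2, Gnai2 and Gnai3, at medians of 0.55 in both. Calls over all genes fell too, from 1923 higher to 595 with DESeq2 and 1391 without the block. Compared with non-neuronal cells, neurons were higher in 4 of the 10 and lower in 2 (27.8% and 25.6% of all genes), Gnai2 (-1.04) and Gnai3 (-0.75), the latter not called by DESeq2 (adjusted p = 0.154) or with no filter on low counts (0.0624).

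Of 14 effector genes 13 were tested, and 1 was higher (Kcnj9, a GIRK subunit) and 7 lower in noradrenergic-like cells, where 16.6% and 16.5% of all genes tested were (median -0.48). Adcy8, an adenylyl cyclase, stood at 12.2 and 14.5 CPM against 134.5 and 162 (-3.52 ± 0.25, SE, adjusted p = 1.02e-09). Plcb1 stood at 53.7 and 39.2 CPM against 376 and 359, Adcy3 fell by 2.13 and Adcy1 by 0.99 on the log2 scale. DESeq2 called 0 higher and 4 lower, without Adcy1 (adjusted p = 0.231) or Kcnj9, and Kcnj9 was also not called without the replicate block or without the filter on low counts. Of all genes DESeq2 called 595 higher and 611 lower, against 1923 and 1902 with edgeR. Against non-neuronal cells, neurons were higher in 9 of the 13 (27.8% of all genes) and lower in Plcb1 (-0.99).

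Of 10 genes that regulate such receptors, 2 were higher and 3 lower in noradrenergic-like cells (median 0.05), shares not far from the 16.6% and 16.5% over all genes tested. Rgs4, which shortens Gi/o and Gq signals, stood at 180 and 221 CPM against 47.7 and 31.5 (2.29 ± 0.20, SE, adjusted p = 2.27e-08). Grk3, a receptor kinase, was 1.28 ± 0.19 higher. Rgs8 fell by 2.20 on the log2 scale, and Rgs10 had 2 and 0 UMIs in noradrenergic-like cells against 66 and 86 in other neurons. Rgs8 was not called by DESeq2 (adjusted p = 0.0697). In neurons against non-neuronal cells 7 of the 10 were higher and 1 lower, where 27.8% and 25.6% of all genes tested were. The lower one, Grk5, named because it was the only one, was not called with Leiden clusters, with DESeq2, with no filter on low counts or without the replicate block.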

How the data were processed

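The values are UMI counts per gene and barcode, not normalized, which per the file headers came from Cell Ranger 6.1.2; the submitters' processing notes name Cell Ranger 7.0, Seurat, mm10 and GRCm38. Whether intronic reads were counted is not given in the sources used here, and the cells had been called before deposit (no barcode under 4208 UMIs in library 1 or 500 in library 2). Of 32285 features, 32235 were found in GENCODE M21.

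Barcodes under 300 genes or over 20% mitochondrial UMIs were left out (9 and 56), and the highest Scrublet scores were removed at 0.8% per 1000 barcodes (1 and 63). Classes came from marker gates per 10,000 UMIs; cells that passed a neuronal and a glial gate, 2 or more glial gates or no gate stayed apart. Class UMIs were summed per library and compared with the two-sided quasi-likelihood test of edgeR 4.0.16 (R 4.3.3), TMM, filterByExpr and the library as a block. The block was used because both classes came from each library. As 1 residual degree of freedom remained, the spread of a gene was taken mostly from that of other genes. A small p-value can thus stand beside unlike libraries, as for Zfp804b between Gal-high and Gal-low cells (log2 differences of -2.77 and -0.447). P-values were adjusted over the whole table by the method of Benjamini and Hochberg, and 0.05 was the threshold. DESeq2 1.42.0 was an alternative, and the code was tested on simulated data. Single-library differences used a prior count of 2. Other tools were scanpy 1.11.5, scipy 1.17.1, numpy 2.4.6 and pandas 2.3.3 in Python 3.11.15.

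The 4 genes, the gene lists, the partner peptides and the comparisons were chosen with earlier results of these data known. Named genes are the 4 members, up to 4 called genes of largest difference between noradrenergic-like cells and other neurons per pathway list, the 5 most alike in pattern, the 5 partners, and the 5 called genes of smallest adjusted p in each direction between Gal-high and Gal-low cells. Rules for the pathway lists left Kcnj9 outside, and it is named because 1 effector was higher. Of the genes these rules give, 1 is not reported here.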

Additional observations from a re-analysis of the deposited data

How the results depend on the processing

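Gal kept its direction and its call in noradrenergic-like cells under each alternative run with a test, at log2 differences of 6.33 (all 4 gate genes required) to 7.58 (DESeq2). Requiring all 4 moved the 21 library 2 cells with 3 gate genes into the other neurons, so the value of 6.33 compares the class with neurons that include them. Without either library the value was 6.75 to 7.32 with no test. Without the replicate block, the Gal difference was 7.57 (adjusted p = 2.14e-06) and no call of Gal or Galr1 changed. Galr1 stayed uncalled there and in the excitatory-like against inhibitory-like comparison; in neurons against non-neuronal cells it was called except with DESeq2 (3.36, adjusted p = 0.0818), and each library alone gave 2.23 to 2.97. DESeq2 also called fewer genes: 595 higher and 611 lower in noradrenergic-like cells (edgeR 1923 and 1902), 1886 and 2161 in neurons (3684 and 3388), and 37 and 30 in excitatory-like against inhibitory-like neurons (293 and 242), where leaving out the replicate block gave 96 and 68. Between Gal-high and Gal-low cells (6 higher, 25 lower) there were 0 and 0 with all 4 gate genes required (287 genes at an unadjusted p under 0.05), with DESeq2 (19), without the replicate block (161), without the cell rich in oligodendrocyte markers (366) and without the 2 cells of least Gal (267). The last 2 settings, and the Galr1 values without the cell of most Galr1 UMIs, were chosen after seeing the data. Leiden clusters gave 10 genes higher there, and keeping high doublet scores gave 15 lower. Zfp804b turned to 0.016 without the 2 cells of least Gal, where Plcb1 was not tested. Beyond the number of cells left, the cause was not tested. Shares of cells with a UMI moved with depth: Gal in noradrenergic-like cells was 100% in library 1 and 33.3% and 66.7% thinned to 1000 and 2000 UMIs, and 70.0% in library 2 and 21.4%, 37.1% and 54.1% thinned to 1000, 2000 and 5000. Galr1 in other neurons was 4.35% and thinned 0.543% at both 1000 and 2000 and 2.89% at 5000 in library 1, and 2.18%, 0.744%, 1.12% and 2.99% in library 2, the last over the 167 of 1056 cells deep enough.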

Other observations

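The 2 noradrenergic-like cells of library 1 with least Gal differed from the other 10 and from each other, a pattern chosen after its values were seen. The cell with 4 Gal UMIs in 88154 held 108 Zfp804b, 74 Gria1 and 49 Trpm3 UMIs. That cell also held 4.88 inhibitory marker UMIs per 10,000, above the inhibitory cut-off of 3, and was classed by the noradrenergic gate. Whether it holds RNA of a second cell was not tested. The cell with 9 Gal UMIs in 70041 held 84 Dcc, 64 Trpm3 and 27 Plcb1 UMIs, with 9 of Zfp804b. Both carried the noradrenergic genes, at 55 and 106 Dbh and 231 and 66 Slc18a2 UMIs, and neither had a Chrnb3 UMI.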
